A study of Mus musculus with 6 samples.

Results

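The cytosolic ribosomal protein genes are the 76 genes, of 12107 measured, whose symbols name a protein of the cytosolic ribosome: Rpl or Rps followed by a number with at most a short suffix, Rplp0 to Rplp2, or Rpsa. Rps27l was left out by the rule. Of the 76, 47 encode proteins of the large subunit (Rpl and Rplp symbols) and 29 proteins of the small subunit (Rps symbols and Rpsa). Binding of RNA polymerase II (Pol II) to chromatin was read by ChIP-seq (chromatin immunoprecipitation and sequencing) with an N-terminal antibody to its largest subunit, POLR2A or RPB1. It was done in cultured mouse neural stem and progenitor cells (NPCs) of strain 129 sv X CD1 per the labels (the study's text names a CD1 and C57BL/6 background), grown with epidermal growth factor as neurospheres from e13.5 ganglionic eminences and used at the second passage, with 3 wild-type (WT) and 3 Armc5(-/-) (KO) libraries numbered as replicate pairs. ARMC5 is a substrate adaptor of a CUL3 ubiquitin ligase that targets POLR2A, and the comparison asks whether Pol II density on these genes differed without it. The genotype was not checked on the counts of Armc5 itself, which was not analysed here. The sources used here do not state how many embryos went into each culture.

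A cytosolic ribosome is built from a large and a small subunit, each made of ribosomal RNA and many proteins, most of which are needed in equal numbers. The genes for these proteins are short, lie apart on many chromosomes and are among the most heavily transcribed genes of a growing cell. Their transcripts typically begin with a cytosine and a run of pyrimidines, the terminal oligopyrimidine (TOP) tract, through which mTOR signalling adjusts their translation, and the introns of many of them carry small nucleolar RNAs (snoRNAs). The reads of each gene had been counted in 3 regions, here called the promoter (from 400 bases before to 100 after the TSS, where transcription starts), the gene body (from 100 bases after the TSS to 100 before the TES, where it ends) and the TES region (from 100 bases before to 2000 after the TES).

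In the RefSeq annotation of GRCm38.p6, the 76 genes lay on 18 chromosomes, with 14 on chromosome 7 and 4 (Rpl10, Rpl36a, Rpl39 and Rps4x) on chromosome X. They spanned 982 to 11774 bases, with a median of 3151.5, against a median of 24054 over all genes with a position. In the GENCODE vM21 annotation, 28 of them held a total of 54 snoRNA genes. For 10 of the 76 the span differed by more than 1000 bases between these annotations, and the sources used here do not name the annotation behind the counted windows, so that levels per kb of those genes are uncertain. ChIP-seq reads carry no strand, and 19 of the 76 promoter windows, 10 gene bodies and 32 TES windows overlapped another protein-coding gene, whose signal cannot be told apart from that of the member. Ribosomal protein genes also have many processed pseudogenes that copy their exons, and where reads that match both were placed is not stated in those sources, which leaves counts over exons uncertain.

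The start sites of 12 genes are shown because the results below turn on them or because they carry the tract for which these genes are known. Each line gives 15 bases before and 15 bases from the annotated start on the transcribed strand, from RefSeq, build GRCm38.p6. Capitals mark a C with at least 5 further pyrimidines beginning within 10 bases of that start. The first 4 genes have a tract at the start site.
Rps27 chr3:90213634-90213663 minus strand: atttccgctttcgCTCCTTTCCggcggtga
Rps6 chr4:86857353-86857382 minus strand: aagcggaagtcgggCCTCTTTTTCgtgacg
Rplp2 chr7:141447636-141447665 plus strand: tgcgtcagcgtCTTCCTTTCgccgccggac
Rpl28 chr7:4792950-4792979 plus strand: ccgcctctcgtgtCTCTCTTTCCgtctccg
The next pair had some of the lowest promoter signal of the set in WT, although the tract is there.
Rpl35 chr2:39005117-39005146 minus strand: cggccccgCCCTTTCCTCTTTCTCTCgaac
Rps10 chr17:27635230-27635259 minus strand: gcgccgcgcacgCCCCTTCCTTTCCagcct
The last 6 are examples of genes with an unadjusted p under 0.05 for a promoter or gene body difference between WT and KO. Others with such a p have a tract, among them Rps27 above and Rps12 and Rps26, which are not shown. A link between tract and difference was not tested. For Rps19, which has 3 annotated starts, the most upstream is shown, and the most downstream has a tract.
Rps23 chr13:90923107-90923136 plus strand: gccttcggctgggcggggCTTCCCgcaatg
Rpl41 chr10:128549154-128549183 minus strand: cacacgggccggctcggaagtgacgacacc
Rps19 chr7:24884577-24884606 plus strand: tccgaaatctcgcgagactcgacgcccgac
Rpl27 chr11:101442230-101442259 plus strand: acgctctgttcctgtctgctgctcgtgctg
Rps15 chr10:80292416-80292445 plus strand: cccggcagagctcgcgataactgcgcaagc
Rplp0 chr5:115559452-115559481 plus strand: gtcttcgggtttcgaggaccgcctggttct

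Of the 76 genes, 58 had an entry in the RefSeq promoter table, with 68 promoters in all, since several have more than 1 annotated start. A tract as defined above was found in 33 of these 68 promoters (48.5%), against 19.2% of the 32851 promoters of the whole table and 19.6% of the 11891 promoters of measured genes. It was about as frequent in large subunit promoters (47.6% of 42) as in small subunit promoters (50.0% of 26). Further motifs were searched on both strands in the 300 bases from 250 before the start. The ETS motif CCGGAAG was in 35.3% of member promoters, 8.86% of all promoters and 17.5% of those of measured genes. The YY1 motif AAGATGG was in 17.6%, 6.34% and 7.12% of these. The GC box GGGCGG was in 61.8% against 35.7% of all promoters, but promoters of the measured genes held it in 65.0%. The TATA motif TATAAA was in 10.3% of member promoters, 13.6% of all and 6.6% of those of measured genes. These shares describe letters in a window, not bound sites.

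The 250 bases before the start of Rpl41 and of Rps19 are given because these promoters had the largest log2 fold changes of the set. Capitals mark matches to the ETS motif and the GC box on either strand. Rpl41 held both, and Rps19 held a GC box.
Rpl41 chr10:128549169-128549418 minus strand: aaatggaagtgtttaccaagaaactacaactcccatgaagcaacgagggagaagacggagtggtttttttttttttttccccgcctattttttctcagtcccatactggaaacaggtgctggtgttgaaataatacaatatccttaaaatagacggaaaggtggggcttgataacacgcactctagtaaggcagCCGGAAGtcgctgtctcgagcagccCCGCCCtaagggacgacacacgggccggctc
Rps19 chr7:24884342-24884591 plus strand: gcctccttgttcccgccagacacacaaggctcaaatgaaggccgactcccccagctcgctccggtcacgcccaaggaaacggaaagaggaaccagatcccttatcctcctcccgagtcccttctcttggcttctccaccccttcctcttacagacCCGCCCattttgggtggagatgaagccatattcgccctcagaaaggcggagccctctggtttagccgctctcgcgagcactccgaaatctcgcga

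The libraries held 14528870 to 25199455 counted reads. Neural precursor markers were well covered, with 10 of 12 measured and a median in percentile 97.5 of gene body signal per kb, whereas the 5 of 7 neuronal markers measured had a median in percentile 16.1. Only 1 of 4 astrocyte, 3 of 5 oligodendrocyte lineage and 1 of 3 endothelial markers were measured, and none of the 5 microglia and blood or the 4 mesenchymal markers. The oligodendrocyte lineage markers measured had a median in percentile 70.6 of gene body signal per kb. The astrocyte marker stood at percentile 60.0 and the endothelial one at 4.42. In WT replicate 3 the 4 measured Y-linked genes held 0.619 CPM (reads scaled to a common library size), against 124 to 234 CPM in the other 5 libraries, so that pair 3 also compares cultures that differ in Y-linked signal. The libraries of pair 1 stood apart for the ribosomal protein genes, as described next.

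In WT cells the ribosomal protein genes carried dense Pol II signal, most of all relative to other genes in the gene body. Levels are CPM after TMM scaling, divided by the length of the window in kb. The median gene body level of the 76 was 7.95 CPM per kb against 1.41 over all genes, and 74 of the 76 stood above percentile 90 of all genes. In the TES region the medians were 7.09 and 1.68 CPM per kb, with 66 of the 76 above percentile 90. At promoters the medians were 25.7 and 11.4 CPM per kb, and the set spread more widely, with 30 above percentile 90 and 18 below percentile 50. Genes as short as these were also denser in the gene body than all genes. The 3453 genes no longer than the longest member had medians of 11.2, 2.50 and 2.00 CPM per kb in the promoter, gene body and TES region. Of these 3453, 364, 1038 and 595 stood above percentile 90 in the same regions. The median large subunit gene had 25.2, 7.34 and 6.82 CPM per kb in the promoter, gene body and TES region, and the median small subunit gene 26.1, 9.33 and 7.14 CPM per kb.

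**Figure D1:**
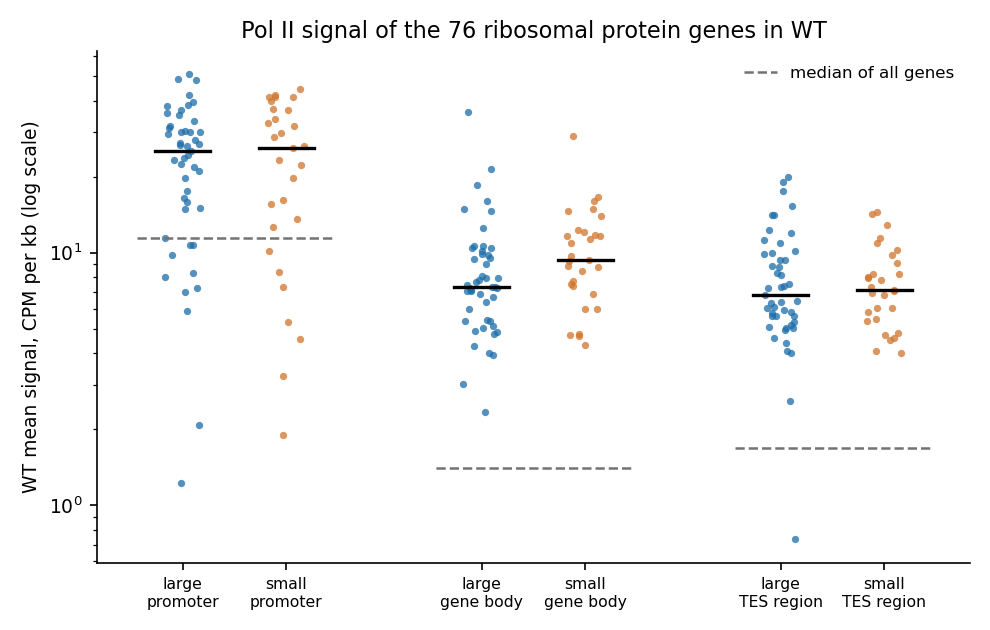
WT mean Pol II signal (CPM per kb, log axis) of the 47 large and 29 small subunit genes in each region, 1 point per gene, with black bars at the medians and dashed lines at the median of all genes. Gene bodies and TES regions lie almost wholly above the dashed line (medians 7.95 against 1.41 and 7.09 against 1.68), while promoters reach from 1.23 to 50.9 CPM per kb.

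The highest promoter level was that of Rplp1, an acidic protein of the ribosomal stalk that recruits elongation factors, with 50.9 CPM per kb. Rpl7a had 48.5 and Rpl27a 48.3 CPM per kb. The lowest were Rpl3, a core protein near the peptidyl transferase centre, with 1.23, Rps10 with 1.90 and Rpl35 with 2.08 CPM per kb. All 3 of these had dense gene bodies, of 18.5, 7.75 and 8.10 CPM per kb. The window of Rpl35 overlapped 2 other protein-coding genes and that of Rps10 overlapped 1, and the span of Rpl3 differed by 8452 bases between the annotations.

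In the gene body the densest gene was Rpl41, which encodes the shortest and most basic ribosomal protein, with 36.2 CPM per kb. Rps28 had 29.0 and Rpl12 21.4 CPM per kb. The sparsest were Rpl36 with 2.33, Rpl22 with 3.03 and Rpl7l1, a paralogue of Rpl7, with 3.93 CPM per kb. These places depend on the annotated length, since Rpl36 spans 4153 bases in RefSeq and 828 in GENCODE, and Rps28 1527 and 5536. In the TES region Rpl13a led with 20.0 CPM per kb, before Rpl7l1 with 19.0 and Rpl3 with 17.5. The lowest there were Rpl11 with 0.733, Rpl26 with 2.59 and Rps27 with 4.00 CPM per kb. Rpl11, which with Rpl5 joins the 5S ribosomal RNA and can bind MDM2, had a dense gene body of 16.0 CPM per kb, and its span differed by 21124 bases between the annotations.

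Across the 76 genes the WT levels of the regions did not run in parallel. Spearman's rho was -0.14 between promoter and gene body, 0.21 between gene body and TES region and 0.25 between promoter and TES region, as a description over 76 genes that share libraries and, for the gene body, a level that depends on the annotated length.

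The share of reads that fell in the set differed more between replicate pairs than between genotypes. In the gene body the 76 genes held 0.396%, 0.222% and 0.153% of the reads in WT replicates 1, 2 and 3, and 0.419%, 0.232% and 0.190% in KO. The KO library was higher within each pair, and the genotypes overlapped. In the TES region the shares were 2.77%, 1.32% and 1.39% in WT and 2.60%, 1.47% and 1.74% in KO. Pair 1 held the largest share in both genotypes, and within it the KO library was the lower one. At promoters the shares were 1.21%, 0.878% and 0.856% in WT and 1.07%, 0.931% and 0.844% in KO, with the KO library higher in pair 2 alone.

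**Figure D2:**
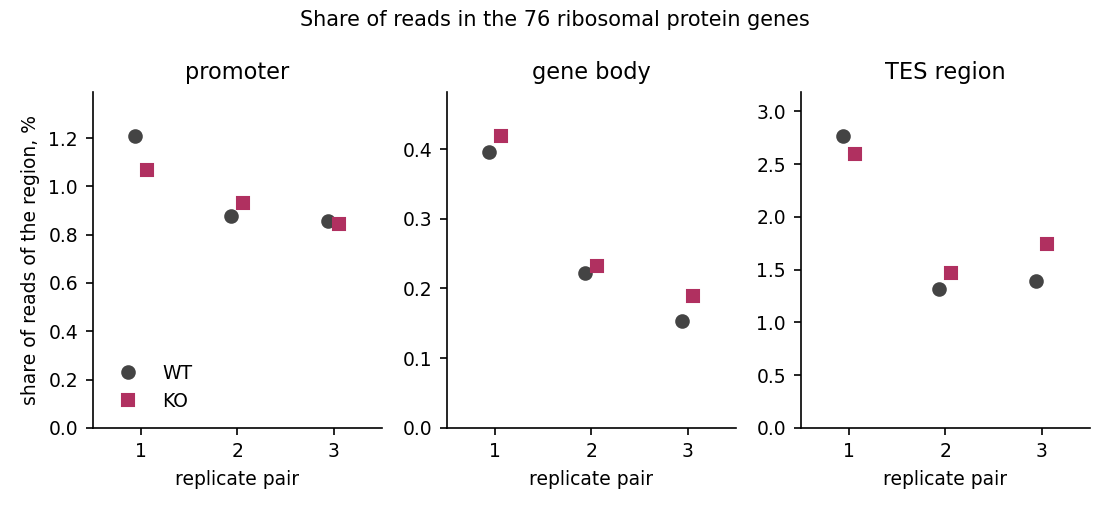
Share of the reads of each region (%) that fell in the 76 ribosomal protein genes, for WT (circles) and KO (squares) in replicate pairs 1 to 3, 1 point per library. Pair 1 stands highest in every panel, and in the gene body the KO library is above its WT partner in all 3 pairs (0.396% and 0.419% in pair 1).

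Large and small subunit genes shared these differences between pairs. The WT replicates had median gene body levels of large subunit genes of 10.4, 6.50 and 5.74 CPM per kb, and the KO replicates 10.7, 6.69 and 6.62. For small subunit genes it was 13.4, 7.42 and 7.22 CPM per kb in WT and 15.5, 7.80 and 8.73 in KO. Small subunit genes had the higher median in every library, and pair 1 the highest in both subunits and genotypes.

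No ribosomal protein gene passed the test for a difference between KO and WT in any region, while gene bodies were, on the whole, slightly higher in KO. The test was limma-voom on all 36321 gene regions, blocked by replicate pair, with Benjamini-Hochberg adjustment, and an adjusted p under 0.1 made a call. In the gene body 0 of 76 were called against 0.206% of all genes (25 of 12107). At an unadjusted p under 0.05, 11 of 76 were higher in KO, where 4.82% of all genes were, and none was lower, where 3.59% of all genes were. The share of members was close to that of genes most like them in length or signal, since 393 of the 3453 genes no longer than the longest member and 177 of the 1194 genes with a WT gene body signal above percentile 90 were higher at that p. The median log2 fold change of the 76 was 0.10 against -0.01 over all genes, and 62 of the 76 were above 0. The value was 0.10 in both the 47 large and the 29 small subunit genes. By edgeR's quasi-likelihood test and by DESeq2, 1 member gene body was called, that of Rplp1 in each, against 0.240% and 0.321% of all genes.

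The higher gene body signal was seen in each pair, most of all in pair 3, and its size depended on the scaling. The median difference of the 76 was 0.06, 0.06 and 0.26 on the log2 scale in pairs 1 to 3. The KO library was higher in all 3 pairs for 34 of the 76, against 13.7% of all genes, 917 of the 3453 short genes and 341 of the 1194 genes of high gene body signal, and lower in all 3 pairs for 1, against 16.9%. Short genes as a class also had a median above 0. The 3453 genes no longer than the longest ribosomal protein gene had a median of 0.05 in the gene body, and the 1194 genes with a WT gene body signal above percentile 90 one of 0.04. In pairs 1 to 3 the medians were 0.05, 0.05 and 0.08 for the short genes. For the genes of high signal they were 0.07, 0.003 and 0.10, so that the 76 stood furthest above both classes in pair 3. When libraries were scaled on the gene bodies of lowest signal, the median of the 76 was 0.05 and that of all genes -0.07, with 46 of the 76 above 0. Without pair 3 the median of the 76 was 0.08, and without either of its libraries 0.07, with 7 of 76 higher at an unadjusted p under 0.05, against 5.67% of all genes without the WT and 5.63% without the KO library. Without pair 1 it was 0.13, with 18 of 76 higher, against 5.01% of all genes.

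**Figure D3:**
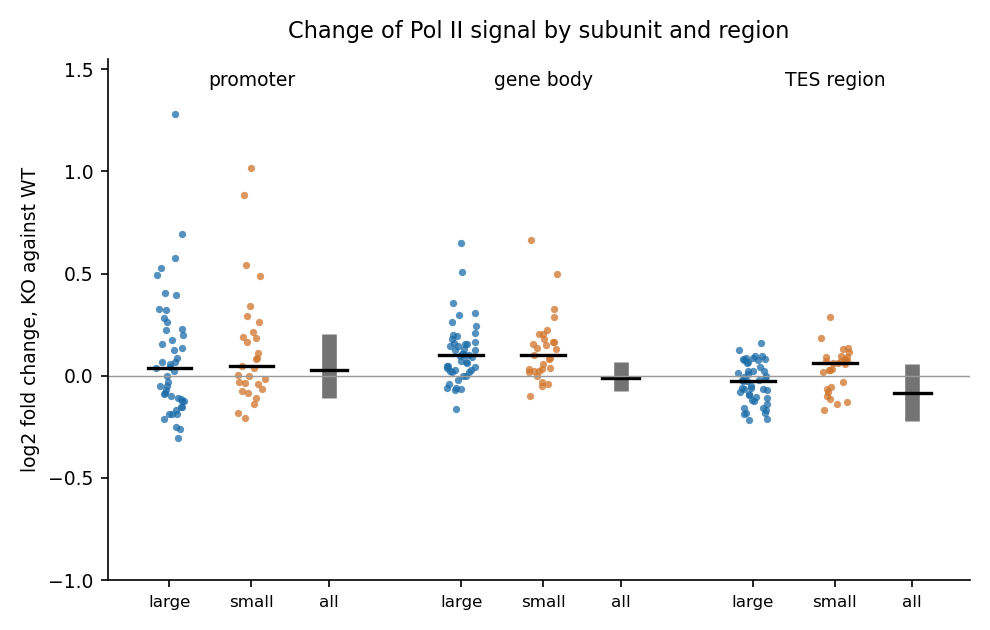
Log2 fold change of Pol II signal, KO against WT, for large and small subunit genes in each region (1 point per gene, black bars at medians), beside the interquartile range (grey) and median of all 12107 genes. The gene body medians of both subunits are 0.10 with all genes at -0.01, and Rpl41 is the highest promoter point at 1.28.

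The genes with the smallest p in the gene body came from both subunits. Rplp1 had 15.3, 9.10 and 7.80 CPM in the WT libraries, in the order of the pairs, and 22.2, 14.3 and 14.6 CPM in KO. Every KO library was above its WT partner, and the groups overlapped because WT replicate 1 was high. Its mean was 10.7 ± 4.03 CPM in WT and 17.0 ± 4.49 in KO (SD, n = 3), with a log2 fold change of 0.65 ± 0.12 (SE) and an adjusted p of 0.101, just outside the call. Without X- and Y-linked genes in the fit the adjusted p was 0.0532, without replicate 3 it was 0.0558 and without replicate 1 it was 0.0186, all of which are calls, whereas without replicate 2 it was 0.446. At the promoter the log2 fold change of Rplp1 was -0.11 ± 0.11 and in the TES region -0.19 ± 0.12.

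Rps27, a small subunit protein mutated in some cases of Diamond-Blackfan anaemia, had 8.99, 9.14 and 7.47 CPM in the WT gene bodies and 12.2, 14.0 and 15.6 CPM in KO. The groups did not overlap. Its log2 fold change was 0.66 ± 0.14 with an adjusted p of 0.153. Rps15, a small subunit protein near the decoding site, had 18.3, 10.6 and 8.86 CPM in WT and 23.1, 16.3 and 14.0 CPM in KO, higher in every pair although the groups overlapped, with a log2 fold change of 0.50 ± 0.12 and an adjusted p of 0.224. Rpl36 had 11.4, 8.78 and 7.47 CPM in WT and 14.6, 12.2 and 13.3 CPM in KO, without overlap, and a log2 fold change of 0.51 ± 0.14 with an adjusted p of 0.302. Without replicate 1, Rps27, Rps15 and Rpl36 were called (adjusted p = 0.0154, 0.0405 and 0.0871), and Rps27 also without X- and Y-linked genes (adjusted p = 0.0890). Without replicate 2 the adjusted p of these 3 were 0.588, 0.742 and 0.736.

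**Figure D4:**
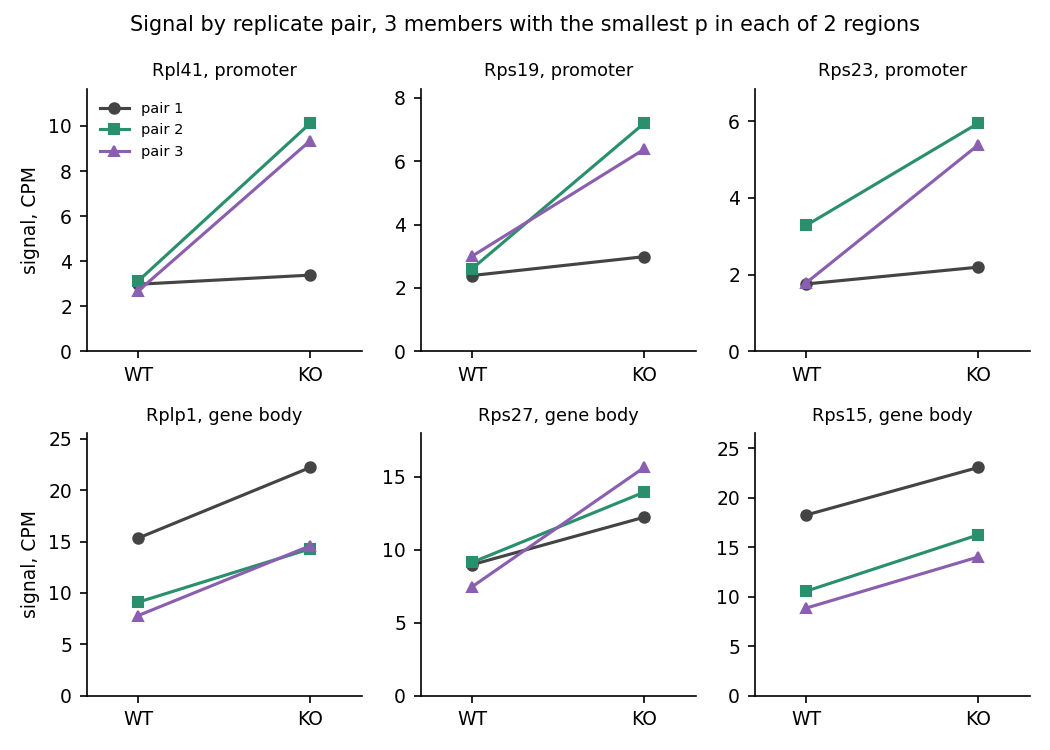
Signal (CPM) in WT and KO for the 3 genes with the smallest p at the promoter (top) and in the gene body (bottom), with lines that join the libraries of a replicate pair. Rpl41 and Rps19 are nearly level in pair 1 (2.98 to 3.38 and 2.39 to 2.99 CPM) and steep in pairs 2 and 3, whereas the gene bodies of Rplp1, Rps27 and Rps15 are higher in KO in every pair.

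The other gene bodies past an unadjusted p of 0.05 were those of Rplp0, Rps12, Rpl37, Rpl4, Rpl36a, Rpl22l1 and Rpl26, with log2 fold changes from 0.20 (Rpl26) to 0.36 (Rpl37). Rplp0, the base of the stalk that binds Rplp1 and Rplp2, had 44.0, 26.3 and 23.3 CPM in WT and 53.7, 32.7 and 28.5 CPM in KO. Its differences within pairs were close to each other, at 0.29, 0.31 and 0.29 on the log2 scale, and the fitted value was 0.30 ± 0.08 with an adjusted p of 0.327. Rplp2, the second acidic stalk protein, had 0.02 ± 0.09.

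At promoters 0 of 76 were called against 0.173% of all genes (21 of 12107). At an unadjusted p under 0.05, 9 of 76 were higher in KO, against 7.55% of all genes, and 3 were lower, against 2.40%. The median log2 fold change was 0.04 for the 76 and 0.03 for all genes, and it was 0.04 for large and 0.05 for small subunit genes. When libraries were scaled on the gene bodies of lowest signal, the median of the 76 was -0.01, with 36 above 0 in place of 43, and that of all genes -0.03. Without pair 1, 25 of the 76 were higher at an unadjusted p under 0.05, against 8.17% of all genes, and without pair 2, 6 were, against 4.62%. In all 3 pairs the KO library was higher for 17 of the 76, against 18.1% of all genes, and lower for 15, against 13.3%. DESeq2 called 1 member promoter, that of Rpl41, against 0.217% of all genes, and edgeR none, against 0.157%.

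Rpl41 had the largest promoter difference. It had 2.98, 3.13 and 2.68 CPM in WT and 3.38, 10.1 and 9.35 CPM in KO, from 33 to 211 reads per library. The groups did not overlap, and the difference lay in pairs 2 and 3. The log2 fold change was 1.28 ± 0.26, a 2.43-fold difference, with an adjusted p of 0.122. With each region fitted on its own the adjusted p was 0.0400, without X- and Y-linked genes 0.0612, without replicate 3 0.0317 and without replicate 1 3.23e-05, where the log2 fold change was 1.73. Without replicate 2 the log2 fold change was 0.97 with an adjusted p of 0.742. The gene body and TES region of Rpl41 differed by 0.04 ± 0.09 and -0.03 ± 0.10.

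Rps19, the small subunit gene mutated most often in Diamond-Blackfan anaemia, followed, with 2.39, 2.61 and 3.01 CPM in WT and 2.99, 7.19 and 6.37 CPM in KO. The groups overlapped only through KO replicate 1, and the log2 fold change was 1.02 ± 0.23 with an adjusted p of 0.168. This was 0.00272 without replicate 1, 0.0747 without replicate 3, 0.0743 with regions fitted separately and 0.0985 without X- and Y-linked genes, but 0.770 without replicate 2, where the log2 fold change was 0.69. Rps23, a protein of the decoding centre, had 1.76, 3.28 and 1.79 CPM in WT and 2.195, 5.95 and 5.38 CPM in KO, a log2 fold change of 0.88 ± 0.23 and an adjusted p of 0.292. It was called without replicate 1 (adjusted p = 0.0356) and had an adjusted p of 0.753 without replicate 2. As with Rpl41, neither differed in the gene body by more than its error, with 0.02 ± 0.08 for Rps19 and 0.03 ± 0.10 for Rps23.

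These 3 promoters were weak ones, standing at percentiles 29.3, 27.2 and 23.8 of all genes in WT. Rpl27, Rpl7, Rps26, Rpl21 and Rps12 were also among the higher promoters past an unadjusted p of 0.05, with log2 fold changes from 0.29 (Rps12) to 0.58 (Rpl27). Rps12 was the only gene past that threshold in both promoter and gene body. The 3 lower ones were Rpl8 (-0.31 ± 0.12), Rpl37a (-0.25 ± 0.11) and Rpl7l1 (-0.26 ± 0.11). All 3 stood above percentile 90 of promoter signal in WT.

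In the TES region 0 of 76 were called against 0.0248% of all genes (3 of 12107). By edgeR 0 of 76 were called against 0.0248% of all genes, and by DESeq2 0 of 76 against 0.114%. At an unadjusted p under 0.05, 1 of 76 was higher, against 1.40% of all genes, and none was lower, against 4.84%. In all 3 pairs 1 of 76 was higher, against 7.98% of all genes, and 2 were lower, against 20.6%. The median of the 76 was 0.01, with all genes at -0.08, large subunit genes at -0.02 and small subunit genes at 0.06. The 3453 genes no longer than the longest member had a median of -0.06, and the 1194 genes of high gene body signal one of -0.04. Of the small subunit genes 20 of 29 were above 0, and of the large subunit genes 19 of 47. The large minus small difference of the medians was -0.09 and was not tested. In pairs 1 to 3 the large subunit medians were -0.20, 0.07 and 0.24, and the small subunit medians -0.16, 0.19 and 0.35. The large subunit median was thus the lower one in each pair. The median of the 76 was -0.19, 0.11 and 0.29 in pairs 1 to 3. Pair 1 was thus opposite to the other two, and without it the median was 0.19, with 68 of the 76 above 0, while without pair 3 it was -0.06, with 18 above 0. Under the scaling on low gene bodies it was -0.05, with 27 above 0, and with each region fitted on its own 0.12, with 63 above 0 and all genes at -0.01. Without pair 1, 16 of the 76 were higher at an unadjusted p under 0.05, against 2.18% of all genes. Rpl13a and Rps13 were called in that fit, where 0.306% of all genes were.

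The single TES region past an unadjusted p of 0.05 was that of Rpsa, a small subunit protein also known as the laminin receptor precursor. It had 33.1, 10.9 and 24.7 CPM in WT and 38.8, 13.7 and 31.7 CPM in KO. Its libraries differed far more between pairs than between genotypes, and KO was higher in each pair. The log2 fold change was 0.29 ± 0.10 with an adjusted p of 0.438. The next in order of p were Rpl7 (-0.22 ± 0.14), Rplp1 (-0.19 ± 0.12) and Rpl29 (-0.17 ± 0.12), each with an adjusted p of at least 0.723.

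Since promoter and gene body differed in different genes, the ratio of promoter to gene body signal was compared within libraries, as a pausing index. Per base, the promoter of the median ribosomal protein gene had 2.67 to 3.56 times the gene body signal in the WT libraries and 2.30 to 3.70 times in KO. For all genes this was 4.32 to 8.54 times in WT, and for the 3448 genes no longer than the longest member 2.96 to 4.41 times. The index ranged among members in WT from 0.0719 (Rpl3) and 0.172 (Rpl41) to 8.98 (Rps15a) and 11.6 (Rpl36, whose annotated length differs as given above). The median was 2.99 to 3.68 in large and 2.48 to 3.36 in small subunit genes of WT.

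In the test of this index 0 of 76 were called against 0.0331% of genes (4 of 12096). At an unadjusted p under 0.05, 9 of 76 were higher in KO, against 7.05% of genes, and 9 were lower, against 3.65%. The median log2 difference was -0.07 for the 76 and 0.01 for all genes. Of the 3448 genes no longer than the longest member, 243 were higher and 311 lower at that p, with a median of -0.06. Rpl41 had 1.20 ± 0.30 (adjusted p = 0.275), Rps19 0.91 ± 0.24 (adjusted p = 0.281), Rps23 0.85 ± 0.22 (adjusted p = 0.281) and Rpl27 0.67 ± 0.19 (adjusted p = 0.288), each higher in all 3 pairs. In the other direction Rplp1 had -0.81 ± 0.22 (adjusted p = 0.282) and Rps15 -0.79 ± 0.20 (adjusted p = 0.281), each lower in all 3 pairs. With a minimum of 50 in place of 10 counts these 6 genes were called, with adjusted p from 0.0142 to 0.0777, where 1.95% of 9223 genes were. Without replicate 1, 10 members were called, where 3.07% of genes were. Across the 76 genes the log2 fold changes of promoter and gene body had a Pearson correlation of -0.36, as a description of genes that share libraries.

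The TES to gene body ratio, per base, had a member median of 0.665 to 1.00 in WT and 0.642 to 0.914 in KO, against 1.15 to 1.24 and 1.10 to 1.13 over all genes. For the 3448 genes no longer than the longest member it was 0.762 to 0.889 in WT and 0.708 to 0.863 in KO. In its test 0 of 76 were called against 0.00828% of genes (1 of 12076). At an unadjusted p under 0.05 none was higher, against 1.43% of genes, and 5 were lower, against 5.84%. These were Rplp1, Rps27, Rpl36, Rpl37 and Rps15, which also stood among those with the smallest p in the gene body, the denominator of the ratio. Rplp1 had the largest difference, -0.79 ± 0.17 (adjusted p = 0.501), with a per-base ratio of 0.619 in WT and 0.357 in KO.

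Other groupings of the members gave similar medians. The 22 genes mutated in Diamond-Blackfan anaemia had median log2 fold changes of 0.04, 0.07 and 0.07 in the promoter, gene body and TES region, and none was called in any region. The 28 members that host snoRNAs had 0.10 in the gene body, and the 48 that do not also had 0.10. At promoters the hosts had 0.09 and the others 0.01. The 32 members with a pyrimidine tract had 0.06 in the gene body and the 26 with a promoter entry and no tract 0.11. None of these differences between groupings was tested.

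The 4 X-linked members had medians of 0.03, 0.04 and -0.06 in the 3 regions. Rpl36a was the one past an unadjusted p of 0.05, in the gene body, with 0.31 ± 0.13, where Rpl10 had 0.12 ± 0.12, Rpl39 -0.06 ± 0.11 and Rps4x -0.05 ± 0.12. The median gene body difference of the 4 was 0.001, 0.34 and 0.12 in pairs 1 to 3. The libraries of pair 3 differed in Y-linked signal, and a role of that difference was not tested. Rpl38 and Rpl24, whose mouse mutants have skeletal and tail defects, had 0.05 ± 0.12 and 0.03 ± 0.09 in the gene body. The 5S partners Rpl5 and Rpl11 had 0.10 ± 0.08 and -0.06 ± 0.07. Rps6, the target of S6 kinase, had 0.15 ± 0.10, and Rps27a, made as a fusion with ubiquitin, 0.03 ± 0.09. The paralogues Rpl22l1 and Rpl7l1 had 0.24 ± 0.10 and 0.10 ± 0.09.

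Genes near these in function were read in the same fit. Of 10 further symbols listed for ribosomal proteins, aliases included, 7 were measured, of which Rpl13a belongs to the 76. The other 6, among them Fau, Rack1, Rpl36al, Rps27l and Rps3a1, were all above 0 in the gene body, with a median of 0.11, and none was called. At promoters 3 of these 6 were above 0 and 3 below, with a median of 0.09 and a smallest adjusted p of 0.437. Rps3a1 had 0.61 ± 0.20 there. The 37 measured of 40 translation factors and other genes of mTOR signalling or with TOP transcripts had medians of -0.01, 0.05 and -0.09 in the promoter, gene body and TES region, with 0 called. The 55 measured ribosome biogenesis factors had -0.04, 0.03 and -0.09, with 1 promoter called, against 0.173% of all genes. In the gene body 3 of the 37 (Eef1a1, which delivers aminoacyl-tRNA to the ribosome, and Nap1l1 and Tpt1, which are not translation factors of the core cycle) and 1 of the 55 were higher at an unadjusted p under 0.05. Of all genes, 4.82% were.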

How the data were processed

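Reads were counted by the authors with HOMER in 3 regions per gene, and the deposited table holds raw whole-number counts for 12107 genes in 6 libraries, without normalization. A second deposited table holds log2 CPM made by the authors with TMM and voom, used as an alternative. The tables of single regions repeat these counts and were not used. Per the submitters' processing notes, the build was GRCm38 (mm10) and the tools included bcl2fastq 2.20, BWA, MACS2, limma and edgeR. Genes without signal in KO had been removed by the authors. No input or spike-in library was used here, so a change shared by all genes would not be seen.

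Groups and pairs came from the sample titles. All 36321 rows were scaled with TMM and tested two-sided in 1 limma-voom fit with the pair as a block (R 4.3.3, edgeR 4.0.16, limma 3.58.1, DESeq2 1.42.0), adjusted by Benjamini-Hochberg over all rows. Same-numbered libraries deviated together from their group means, with correlations from 0.560 to 0.874 over all genes, and the study describes biological replicate pairs. Within a group no library was a copy of another (chi-square over its degrees of freedom at least 28.5). Ratios used counts plus 0.5 with a mean of at least 10 in both regions, tested with limma, the same block and a trend on the mean log2 ratio. RefSeq positions were found for 11939 genes, 11805 by symbol and 134 by synonym. Scripts were tested on simulated data. The median SE of a member's log2 fold change was 0.13 at promoters, 0.10 in gene bodies and 0.13 in TES regions. These SE come from the limma fit and reflect the variation between libraries left after the pair block, with information shared across genes. PCR copies are not independent molecules, and a precision taken from read counts alone would cover counting error only.

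The members and lists were chosen with earlier results of these data known. Named genes were, per region, the 4 members with the smallest p and the 3 with the highest and lowest WT signal per kb, with a fixed set of known roles. A few values that this rule would name are not reported here. Members past an unadjusted p of 0.05 were named after their values were seen. The listed non-coding snoRNA host genes were not among the measured genes (0 of 13).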

Additional observations from a re-analysis of the deposited data

How the results depend on the processing

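Without the replicate block no region of any gene was called (0 of 36321 rows by limma), 2 member promoters, 1 gene body and 0 TES regions had an unadjusted p under 0.05 (0.537%, 0.289% and 0.223% of all genes), the member medians were 0.06, 0.13 and 0.09 in the promoter, gene body and TES region, and the large minus small subunit median was -0.0264 in the gene body. Other tools and subsets added calls. DESeq2 called 1 member promoter and 1 gene body, edgeR 1 gene body, separate fits per region 2 promoters (0.553% of all genes), and a fit without X- and Y-linked genes 2 promoters (0.452%) and 2 gene bodies (0.503%). A minimum of 50 counts gave 6 calls in the promoter to gene body ratio. The deposited log2 CPM gave a large minus small median of -0.0297 in the gene body, and scaling on low gene bodies a promoter median of -0.0149, with Rpl24 (-0.0289), Rpl38 (-0.00951), Rplp2 (-0.0393), Rps19 (-0.0353) and Rps27a (-0.0230) below 0 in the gene body. The low-count filter changed no call of a member.

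Leaving out pairs or single libraries gave 0 to 10 member promoters, 0 to 5 gene bodies and 0 to 2 TES regions called, where at most 2.94%, 1.26% and 0.487% of all genes were, and 0 to 10 members in the promoter to gene body ratio. The highest counts over regions came without WT or KO replicate 1, and no member was called without replicate 2. Under the block, a pair that lost 1 library tells nothing about genotype, so single libraries act much like pairs. Medians ranged from 0.0287 to 0.0516, 0.0650 to 0.132 and -0.0714 to 0.188 in the 3 regions, and large minus small medians from -0.130 to -0.0196, -0.0440 to -0.0172 and -0.0821 to -0.0533. Values that crossed 0 were the gene bodies of Rpl11 (-0.102 to 0.0252), Rpl24 (-0.00129 to 0.0757), Rpl38 (-0.0906 to 0.182), Rplp2 (-0.0260 to 0.0912) and Rps19 (-0.00614 to 0.0584), and the TES region of Rplp1 (-0.252 to 0.0149). With 3 pairs, differences of the size of the member medians are not detectable gene by gene.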
